A study of Homo sapiens with 4 samples.

Results

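Voltage-gated and related ion channels were examined at the chromatin level in human embryonic stem cells. The members are the promoters whose gene symbol starts with KCN (potassium channels), with SCN, a number and A or B (voltage-gated sodium channels), or with CACN (voltage-gated calcium channels). This rule found 135 of the 20242 promoters in the data, of which 95 belong to potassium, 14 to sodium and 26 to calcium channel genes. The choice rests on names alone and used no measured value.

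The cells were JMJD3c-hESCs, a line derived from the SEES-3 human embryonic stem cell line. It carries a stably inserted, HA-tagged catalytic domain of JMJD3 (JMJD3c), an enzyme that removes methyl groups from lysine 27 of histone H3, behind a Tet-responsive element. The −Dox cells carried the same transgene and reverse transactivator without doxycycline, and the +Dox cells received doxycycline (Dox) at 1 µg/ml, with collection on day 3 for both. Chromatin immunoprecipitation sequencing (ChIP-seq) was run for trimethylated lysine 27 (H3K27me3) and trimethylated lysine 4 (H3K4me3) of histone H3, with 1 library for each mark and condition. The transgenic line came from drug-selected clones of 1 parental line, and the −Dox and +Dox cells differ in the drug as well as in JMJD3c.

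Potassium channels set the resting potential and end action potentials, sodium channels start them, and calcium channels couple them to secretion, contraction and gene expression. Most are made in neurons, muscle or gland cells rather than in stem cells. H3K27me3 is laid down by Polycomb complexes at silent genes, while H3K4me3 marks promoters that are active or held ready. Promoters that carry both, called bivalent, are known in embryonic stem cells from genes that await use in differentiated tissue.

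Each value is read coverage summed from 3 kb before to 3 kb after a transcription start, which the authors had scaled by library size. All windows have this same length, so levels need no correction for length between genes. Windows may differ in how well reads map to them, which was not corrected. Promoters above 20 for both marks in −Dox were called bivalent, and those above 20 for a single mark were named after that mark (H3K27me3-only, H3K4me3-only). Promoters with neither were called unmarked. The threshold stands for about 15.6 reads (−Dox) and 15.9 reads (+Dox) of H3K27me3, and about 20.3 and 15.6 reads of H3K4me3. With no repeated library, no p-value is given and differences have no replicate check. The 95% intervals on ratios describe counting error. Those on shares and medians treat promoters as independent draws, and they do not give the range of the promoters. The libraries had no molecular identifiers, so copies made by PCR can count as separate reads. Fewer cells with a mark and less of the mark per cell cannot be told apart in such bulk values.

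The labelled cell type was checked against marker promoters. Of 12 promoters of pluripotent stem cell genes, 11 were H3K4me3-only in −Dox, and 11 were above 20 for H3K4me3 in +Dox. The exception, POU5F1, was measured at a transcript start 10049 bases from its usual one. EPCAM (24148 bases), TDGF1 (3362) and NANOG (1608) were also measured away from their usual starts and were H3K4me3-only. This class held 54.2% of all promoters in −Dox. Of 8 heart muscle promoters, 6 were unmarked, 1 was H3K4me3-only (RYR2) and 1 was H3K27me3-only (ACTN2). Of 9 neuronal promoters, 3 were unmarked, 4 were H3K4me3-only and 2, SNAP25 and STMN2, were bivalent. Whether differentiated cells were present in the cultures was not tested with these libraries. For Dox-treated cells of this line the paper reports a shape like that of differentiating cells, weaker pluripotency markers and higher expression of mesoendodermal genes. The marker classes above do not show that the +Dox cells were still undifferentiated.

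The sequences directly before the transcription start show how far the promoters of this gene group differ in base composition. Positions are given in GRCh37, the assembly behind hg19. Sequences were drawn from all but 1 of the chromosomes, so KCNK9, with a higher +Dox value than KCNA3, was not among the candidates. KCNK4, KCNA1 and KCNH3 had higher +Dox values than KCNA3 too, and CACNG2 had a lower ratio than KCNJ9. These were not among the candidates either. Among 60 channel promoters on the chromosomes used, within 1 kb of the usual start and with no annotated exon in the 250 bases before it, the examples are the bivalent promoter with the lowest H3K27me3 ratio (KCNJ9, chr1:160051078-160051327, plus strand), the bivalent one with the highest H3K27me3 in +Dox (KCNA3, chr1:111217563-111217812, minus strand), the H3K27me3-only one with the highest H3K27me3 (KCNA4, chr11:30038578-30038827, minus strand), the H3K4me3-only one with the highest H3K4me3 (KCNG3, chr2:42721123-42721372, minus strand) and the unmarked one whose CpG content is nearest to its class median (CACNA1I, chr22:39966508-39966757, plus strand). No annotated gene covers any of the 5 stretches. Each is written 5′ to 3′ on the strand of its gene, and capitals mark CG dinucleotides, the sites of DNA methylation.
KCNJ9: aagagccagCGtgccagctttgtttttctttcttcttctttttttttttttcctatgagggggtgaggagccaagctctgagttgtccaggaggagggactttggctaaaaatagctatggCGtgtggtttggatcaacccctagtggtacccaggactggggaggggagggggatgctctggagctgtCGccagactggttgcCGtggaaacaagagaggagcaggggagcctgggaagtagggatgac
KCNA3: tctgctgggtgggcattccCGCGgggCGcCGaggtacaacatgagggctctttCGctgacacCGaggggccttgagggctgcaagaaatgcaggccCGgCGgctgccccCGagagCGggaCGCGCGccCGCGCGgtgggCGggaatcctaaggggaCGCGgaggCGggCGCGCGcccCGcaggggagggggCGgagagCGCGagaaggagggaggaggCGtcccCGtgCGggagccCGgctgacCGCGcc
KCNA4: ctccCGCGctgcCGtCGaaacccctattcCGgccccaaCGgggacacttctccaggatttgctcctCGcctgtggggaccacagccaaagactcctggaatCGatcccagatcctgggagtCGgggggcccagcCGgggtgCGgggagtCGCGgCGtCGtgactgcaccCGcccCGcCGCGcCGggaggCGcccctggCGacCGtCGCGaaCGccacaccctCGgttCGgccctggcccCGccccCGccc
KCNG3: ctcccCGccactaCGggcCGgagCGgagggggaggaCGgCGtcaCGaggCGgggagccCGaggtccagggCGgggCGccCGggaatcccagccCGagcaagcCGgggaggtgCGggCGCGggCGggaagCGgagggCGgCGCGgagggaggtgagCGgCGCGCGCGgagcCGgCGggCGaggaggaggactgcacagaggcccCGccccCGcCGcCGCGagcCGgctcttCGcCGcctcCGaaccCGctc
CACNA1I: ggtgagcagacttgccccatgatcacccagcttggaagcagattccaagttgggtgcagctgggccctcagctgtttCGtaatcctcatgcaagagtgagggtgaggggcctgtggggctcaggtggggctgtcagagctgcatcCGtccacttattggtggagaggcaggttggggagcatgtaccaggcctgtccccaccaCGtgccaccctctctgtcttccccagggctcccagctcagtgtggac
The stretch before KCNG3 holds 40 CG dinucleotides, that before KCNA3 holds 33, and that before KCNA4 holds 30. The stretches before KCNJ9 and CACNA1I hold 4 and 3. KCNA3 and KCNJ9 carry the same class with a wide difference in CG content, as is taken up with the composition of all members.

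Both marks together were common at channel promoters. In −Dox cells 47 of the 135 (34.8%, 95% interval 27.3 to 43.2) were bivalent, against 9.42% of all promoters, which lies below that interval. H3K27me3-only promoters numbered 6 (4.44%, 2.05 to 9.36), against 1.58% of all. H3K4me3-only promoters numbered 38 (28.1%, 21.2 to 36.3), against 54.2% of all, and 44 were unmarked (32.6%, 25.3 to 40.9), against 34.8% of all. The share with neither mark was thus close to that of all promoters, and the 2 sets stood apart in the marked classes. In +Dox cells 31 were bivalent, 5 H3K27me3-only, 48 H3K4me3-only and 51 unmarked.

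**Figure D1:**
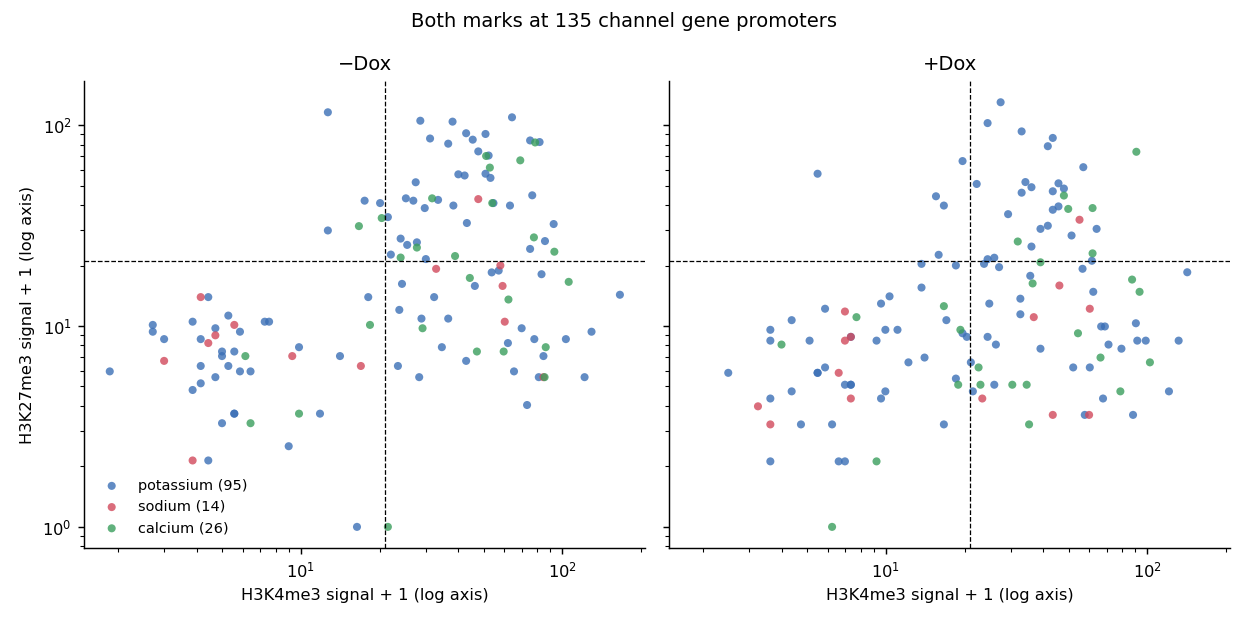
H3K4me3 signal (x axis) against H3K27me3 signal (y axis), each plus 1 on log axes, for 135 channel promoters in −Dox cells (left) and +Dox cells (right). Points are promoters coloured by channel type, and dashed lines mark the class threshold of 20. The upper right field holds 47 promoters in −Dox and 31 in +Dox, and 1 of them in each is a sodium channel promoter.

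By type, calcium channels had 11 of 26 (42.3%, 25.5 to 61.1), potassium channels 35 of 95 (36.8%, 27.8 to 46.9), and sodium channels 1 of 14 (7.14%, 1.27 to 31.5). The intervals of all 3 types overlap, while the shares of calcium and potassium channels lie above the sodium interval. The low share of sodium channels rests on 14 promoters, and a difference between types was not tested. Pore-forming subunits were bivalent at 33 of 88 promoters (37.5%, 28.1 to 47.9). Auxiliary subunits, which alter gating or transport of a pore they do not form, were bivalent at 8 of 37 (21.6%, 11.4 to 37.2).

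Within potassium channels, bivalent promoters came from most subfamilies of pores. The two-pore domain channels (KCNK), which carry background current, had 9 of 15 bivalent promoters. The silent Kv subunits (KCNF, KCNG, KCNS and KCNV), which form no channel alone but modify Kv2 pores, had 6 of 10. The inward rectifiers (KCNJ) had 6 of 15, and the calcium- and sodium-activated pores 1 of 8, namely KCNMA1. The Kv1 channels (KCNA) had 3 bivalent and 3 H3K27me3-only promoters among 8, and none that was H3K4me3-only. None of the 5 KCNE promoters and none of the 4 beta subunits of the BK channel were bivalent. Among calcium channels the pore-forming alpha1 genes had 6 of 10 bivalent promoters, the beta subunits 2 of 4, the gamma subunits and their AMPA receptor relatives (CACNG) 2 of 8 and the alpha2delta subunits 1 of 4.

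**Figure D2:**
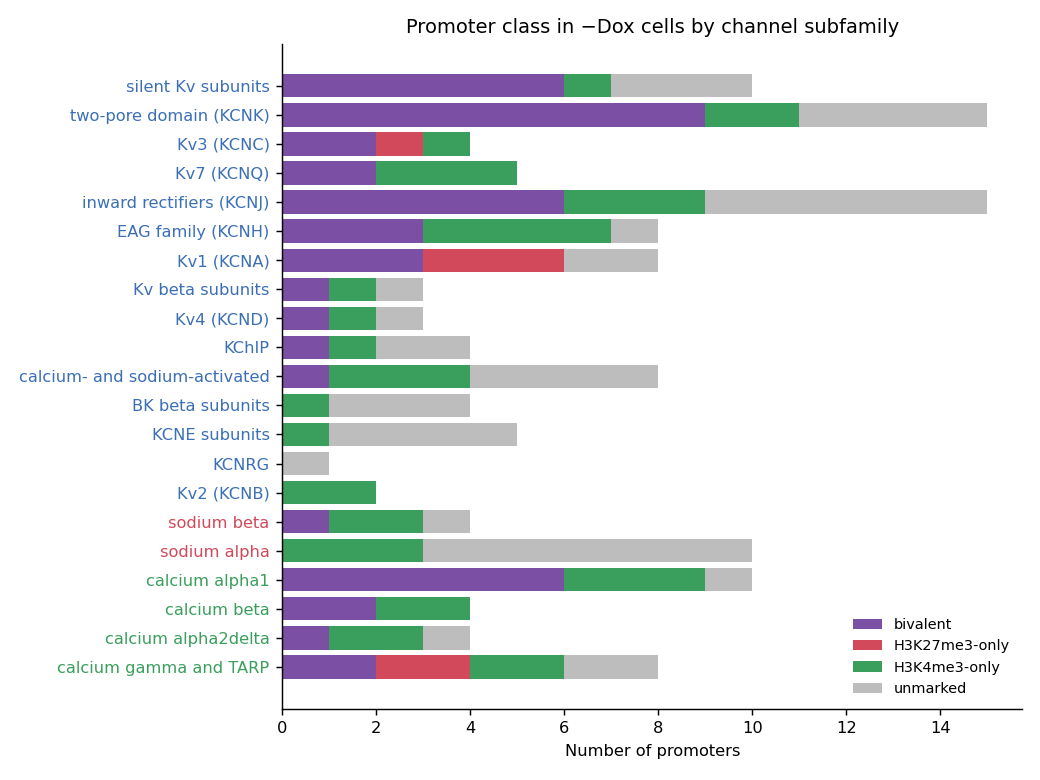
Number of promoters in each class in −Dox cells (x axis) for each channel subfamily (y axis), with label colours for potassium (blue), sodium (red) and calcium (green). Two-pore domain channels have the most bivalent promoters (9 of 15), while sodium alpha subunits have none among 10.

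The highest H3K27me3 values among all members in −Dox belonged to potassium channels. KCNA4, a Kv1 pore, stood at 115 in −Dox and 65.2 in +Dox with H3K4me3 at 11.7 and 18.6, and was H3K27me3-only in both. KCNK9, a two-pore channel, stood at 108 and 85.4. KCNA1, the Kv1 channel of axons, stood at 104 and 101. These promoters kept a high level in values scaled to library reads. KCNA4 was the one of them whose ratio interval lay below 1 (0.568, 0.399 to 0.815). KCNH3, of the EAG family, had 103 in −Dox and 92.1 in +Dox. KCNK4, a mechanically gated two-pore channel, had 90.1 and 129.

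The highest H3K4me3 values came from promoters with little H3K27me3. KCNN2, a small-conductance calcium-activated channel, had H3K4me3 of 165 in −Dox and 131 in +Dox with H3K27me3 of 13.3 and 7.46. KCNG3 had H3K4me3 of 128 and 141 with H3K27me3 of 8.37 and 17.5. Its start lies 587 bases from that of MTA3, also H3K4me3-only, so most of the KCNG3 window is shared with that promoter. KCNN1 had H3K4me3 of 121 and 97.7. CACNG7 (105 and 86.5) and KCNH8 (102 and 87.2) followed. All 5 had ratio intervals that included 1 for both marks. The starts measured for KCNN1 and KCNN2 lie 15814 and 306092 bases from the usual start of their gene, so these values describe other promoters within or near those genes.

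Sodium channel promoters carried little H3K27me3. SCN4B, a beta subunit gene (chr11, start at 118023538), was the bivalent one, with H3K27me3 of 41.8 in −Dox and 32.8 in +Dox (ratio 0.784, 0.444 to 1.33) and H3K4me3 of 46.7 and 54.1. Its neighbour SCN2B starts 23.8 kb away and was unmarked in −Dox, with H3K4me3 of 16 in −Dox and 22.4 in +Dox. SCN3B, a further beta subunit gene, was H3K4me3-only, with H3K27me3 of 14.8 and 11.2 and H3K4me3 of 58.1 and 59.3. The ratio intervals of these beta subunit promoters included 1 for both marks.

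Some of the pore-forming alpha subunits were H3K4me3-only in both conditions. SCN8A, a neuronal channel, had H3K4me3 of 83.8 in −Dox and 58.9 in +Dox. SCN9A, known from pain-sensing neurons, had 59.3 and 42.5. H3K4me3 was lower in +Dox at both, and each interval included 1.

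A further 7 alpha subunit promoters (SCN1A, SCN2A, SCN3A, SCN4A, SCN7A, SCN10A and SCN11A) were unmarked in both conditions, with H3K4me3 from 2 (SCN3A) to 8.26 (SCN4A) in −Dox. SCN3A, SCN4A, SCN10A and SCN11A had H3K27me3 of 5.71, 6.08, 7.99 and 7.23 in −Dox, and 7.46, 7.83, 3.36 and 4.85 in +Dox. SCN1A had H3K27me3 of 12.9 in −Dox and 2.98 in +Dox, a ratio of 0.231 (0.0209 to 0.92). SCN7A had 9.13 and 2.24. SCN2A had 1.14 in −Dox, about 1 read, and 10.8 in +Dox, a ratio of 9.48 (1.22 to 387). All of these are below the level at which a promoter counts as marked, and an interval this wide shows how few reads stand behind the ratio. For SCN1A, SCN3A, SCN7A and SCN11A the transcript was not matched to a position.

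JMJD3c induction is meant to remove H3K27me3, so the ratio of +Dox to −Dox was taken at the 47 bivalent promoters. H3K27me3 had a median of 42.2 in −Dox and 29.5 in +Dox, and the median log2 ratio was −0.67 (−0.76 to −0.34), against −0.81 (−0.86 to −0.76) over all bivalent promoters. A ratio below 0.5 was found at 14 (29.8%, 18.7 to 44), against 40.8% of all bivalent promoters, a share that lies within the interval of the channels. A ratio above 1 was found at 2 (4.26%, 1.17 to 14.3), namely CACNA1G and KCNK4, against 12.4% of all. H3K27me3 was therefore lower in +Dox at 45 of 47 promoters.

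H3K4me3 moved less. Its median at the same promoters was 42.2 in −Dox and 38.0 in +Dox, with a median log2 ratio of −0.20 (−0.31 to −0.09), against −0.18 (−0.20 to −0.16) over all bivalent promoters. The ratio was below 1 at 35 of 47 (74.5%, 60.5 to 84.7), against 67.6% of all. No bivalent channel promoter had an H3K4me3 ratio below 0.5 or above 2.

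**Figure D3:**
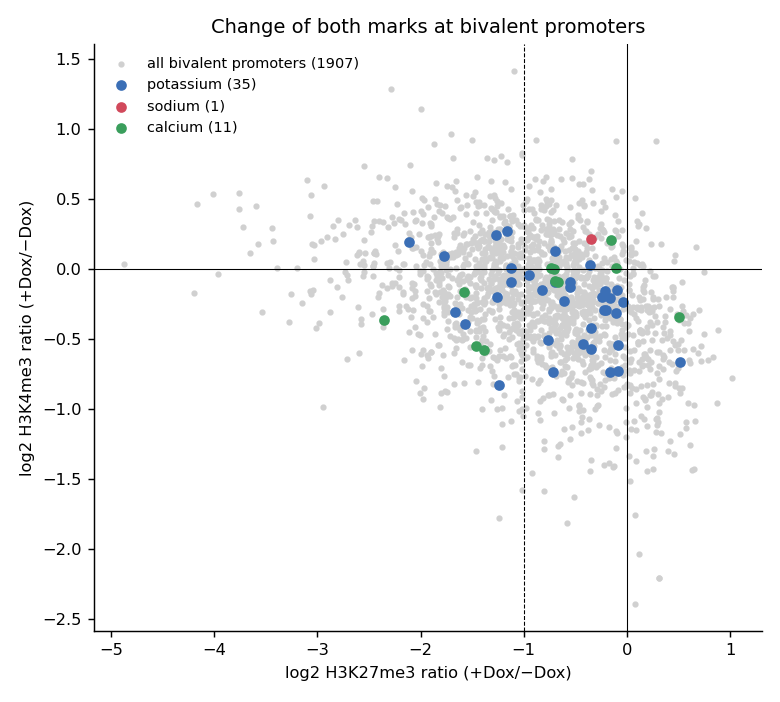
Log2 of the +Dox/−Dox ratio of H3K27me3 (x axis) and of H3K4me3 (y axis) at 1907 bivalent promoters (grey) and the 47 channel promoters among them, coloured by type. The dashed line marks a halving of H3K27me3, and 14 channel promoters lie to its left, while the channels lie within the grey cloud on both axes.

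The H3K27me3 ratio went with the starting level. In the range from 20 to 40 in −Dox, 8 of 20 channel promoters were below 0.5 (40%, 21.9 to 61.3), against 54.0% of all bivalent promoters. From 40 to 80 there were 5 of 17 (29.4%, 13.3 to 53.1), against 39.4%. Above 80 there was 1 of 10 (10%, 1.79 to 40.4), against 16.8%. Channel promoters had the lower share in each range, within their intervals. The class was set on the −Dox value, and with it grouped by the mean of both conditions the shares of the channels were 6 of 19, 3 of 15 and 0 of 5, against 45.0%, 31.6% and 6.23% of all bivalent promoters.

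By type, the median log2 H3K27me3 ratio was −0.56 (−0.82 to −0.24) at the 35 potassium and −0.70 (−1.58 to −0.11) at the 11 calcium channel promoters. Ratios below 0.5 were found at 10 potassium and 4 calcium channel promoters. Among the subfamilies, 3 of 6 silent Kv subunits were below 0.5, 2 of 6 inward rectifiers, 2 of 6 alpha1 subunits and 1 of 9 two-pore channels. The two-pore channels had the higher starting level, with a median of 69.6 in −Dox, against 39.9 at the silent Kv subunits.

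Among bivalent calcium channel promoters the lowest ratio was that of CACNG2 (stargazin, which guides AMPA receptors to synapses), where H3K27me3 was 20.9 in −Dox and 4.10 in +Dox (0.196, 0.0343 to 0.642). CACNB4, a beta subunit of neuronal channels, had 65.8 and 22.0 (0.334, 0.177 to 0.575). CACNA1S, the pore of skeletal muscle, had 23.6 and 8.57 (0.364, 0.135 to 0.957). CACNA1A, the pore of P/Q-type channels at nerve terminals, had 39.9 and 15.3 (0.383, 0.177 to 0.76). H3K4me3 was also lower in +Dox at these promoters, at 17.9, 60.8, 18.3 and 35.4 against 23.1, 68.1, 26.8 and 53.0, with intervals that included 1. CACNA1D, an L-type pore of endocrine and sinoatrial cells, had H3K27me3 of 69.2 and 43.6, with an interval that ended just below 1 (0.63, 0.403 to 0.99).

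Among potassium channels, KCNJ9, a G protein-gated rectifier, had the lowest ratio, with H3K27me3 of 33.9 in −Dox and 7.83 in +Dox (0.231, 0.0761 to 0.562). KCNS3, a silent subunit, had 25.5 and 7.46 (0.293, 0.0966 to 0.759). KCNJ12, a strong inward rectifier, had 43.7 and 13.8 (0.315, 0.145 to 0.641). At KCNS3 and KCNJ12 this left H3K4me3 promoters, with H3K4me3 of 90.6 and 61.1 in +Dox. KCNJ12 has a near-identical relative, KCNJ18, and reads could be split between the copies. KCNIP4, which binds Kv4 channels, had 24.3 and 8.20 (0.337, 0.128 to 0.897), with H3K4me3 of 24.5 and 18.6.

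A further 6 bivalent potassium channel promoters were below 0.5, all with intervals below 1. They were KCNK15 (0.416), KCNQ3 (0.419), KCNH1 (0.424), KCNF1 (0.446), KCND3 (0.459) and KCNS1 (0.459). KCNQ3, a subunit of the M-current channel of neurons, had H3K27me3 of 73.0 in −Dox and 30.6 in +Dox. KCND3, a Kv4 pore of heart and brain, had 83.7 and 38.4 while its H3K4me3 stood at 44.5 and 44.7. Intervals also lay below 1 at KCNG1 (0.519), KCNK17 (0.565), KCNK10 (0.589) and KCNQ5 (0.607).

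Both marks were lower at KCNQ5, a further Kv7 channel (chr6, start at 73331520). Its H3K27me3 was 82.9 in −Dox and 50.3 in +Dox (0.607, 0.402 to 0.924), and its H3K4me3 was 74.4 and 44.7 (0.602, 0.39 to 0.905). With the libraries of a mark set to the same total, the H3K27me3 interval of KCNQ5 included 1. No other channel promoter above 20 had intervals below 1 for both marks in the values as deposited, and with a median ratio of 1 over low promoters CACNA1A had them too.

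**Figure D4:**
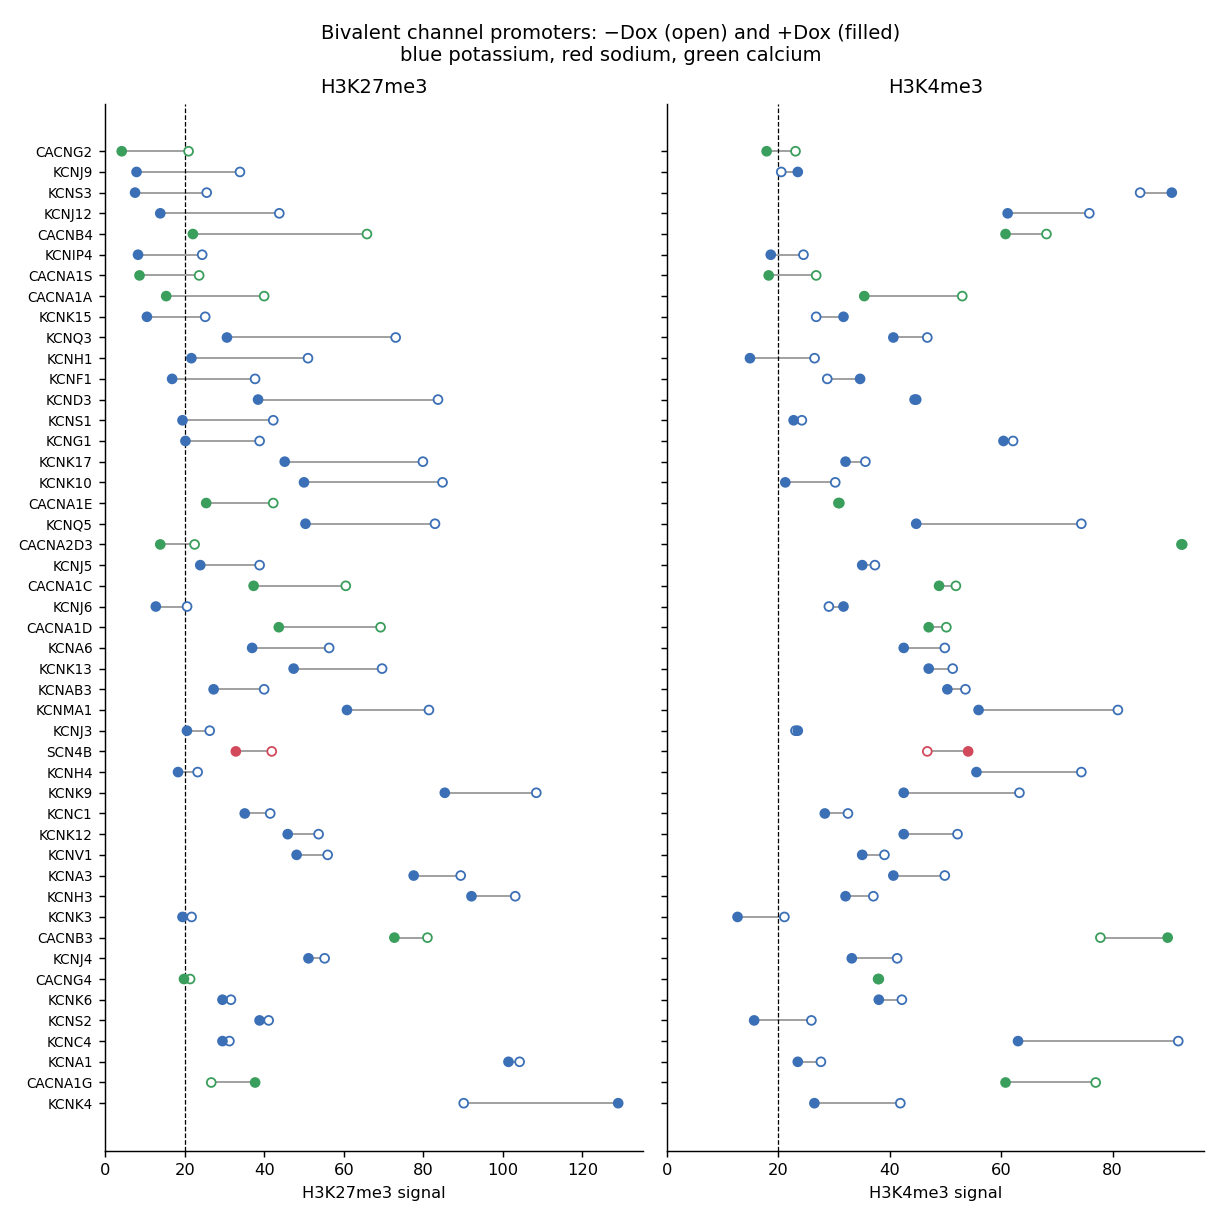
H3K27me3 signal (left) and H3K4me3 signal (right) at the 47 bivalent channel promoters, sorted by their H3K27me3 ratio with the lowest at the top. Open circles are −Dox, filled circles +Dox, colours give the channel type, and the dashed line marks the threshold of 20. H3K27me3 is lower in +Dox in all but the lowest 2 lines, while H3K4me3 lies close in both conditions.

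At the other end, KCNK4 (chr11, start at 64058797) had a higher H3K27me3 value in +Dox, 129 against 90.1 (1.43, 1.04 to 1.97). Its H3K4me3 was 26.5 against 41.9 (0.632, 0.358 to 1.09). Values are scaled to library reads, so a higher value need not mean more of the mark in the cells. CACNA1G, a T-type calcium channel, had H3K27me3 of 26.6 in −Dox and 37.7 in +Dox (1.41, 0.776 to 2.57), which includes 1. The next ratios were those of KCNA1 (0.973), KCNC4 (0.945), KCNS2 (0.944), KCNK6 (0.933), CACNG4 (0.928) and KCNJ4 (0.926), all with intervals that include 1. KCNC4, a fast Kv3 channel, had H3K27me3 of 31.2 and 29.4 with H3K4me3 of 91.8 and 63.0, and the latter ratio was below 1 (0.687, 0.475 to 0.979). Its measured start lies 1834 bases from the usual one.

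Read over all members above 20 in either condition, 22 of 54 had an H3K27me3 ratio with an interval below 1 (40.7%), against 44.7% of all such promoters, and 1 had an interval above 1, against 3.78%. The call depends on the scaling between libraries. With the H3K27me3 libraries set to the same total over all promoters, a factor of 1.18 on +Dox, 13 were below 1 and 3 above, namely KCNA7, KCNJ10 and KCNK4. KCNK4 was above 1 under every scaling tried, and each scaling is relative between libraries. For H3K4me3, 3 of 89 had an interval below 1, KCNC4 and KCNQ5 among them, against 4.11%, and 1 above, against 1.82%. That one was KCNMB4, a BK beta subunit that was H3K4me3-only, with H3K4me3 of 83.8 in −Dox and 120.1 in +Dox (1.43, 1.06 to 1.95). With a median ratio of 1 over low promoters, KCNMB4 no longer had an interval above 1 and 12 promoters had one below 1. KCNQ5 was below 1 for H3K4me3 under every scaling tried.

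Classes were compared between the conditions. Of the 47 bivalent promoters 30 were still bivalent in +Dox (63.8%, 49.5 to 76.0), against 51% of all bivalent promoters, and 11 had become H3K4me3-only (23.4%, 13.6 to 37.2), against 39.1%. The share in all bivalent promoters lies within the first interval and above the second. H3K4me3 was still above 20 at 41 (87.2%, 74.8 to 94.0), against 90.1%. The 4 that were unmarked in +Dox were CACNG2, KCNIP4, CACNA1S and KCNK3 (8.51%, 3.36 to 19.9). Among all bivalent promoters this share was 2.67%, below that interval. KCNH1 and KCNS2 were H3K27me3-only (4.26%, 1.175 to 14.25), against 7.24% of all bivalent promoters. All 6 had H3K4me3 between 21.1 and 26.8 in −Dox.

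Of the 14 promoters with a ratio below 0.5, 7 were H3K4me3-only in +Dox (CACNA1A, KCNF1, KCNJ9, KCNJ12, KCNK15, KCNS1 and KCNS3). CACNB4, KCND3 and KCNQ3 were still bivalent. None of the 14 had an H3K4me3 interval that excluded 1. The remaining 4 of the 11 promoters that became H3K4me3-only (CACNA2D3, CACNG4, KCNH4 and KCNJ6) started between 20.5 and 23.2, and their H3K27me3 intervals included 1. Just under the threshold in −Dox stood KCNJ2 (17.9) and KCND2 (17.5), among others.

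The 6 H3K27me3-only promoters were 3 Kv1 channels, 1 Kv3 channel and 2 CACNG genes. Ratios below 0.5 were found at 2 of them (33.3%, 9.68 to 70.0), against 37.9% of all H3K27me3-only promoters, and both were CACNG genes. CACNG6 had H3K27me3 of 33.5 in −Dox and 4.10 in +Dox (0.122, 0.0219 to 0.369), while H3K4me3 was 19.4 and 22.0. CACNG3, an AMPA receptor partner, had H3K27me3 of 30.4 and 10.1 (0.331, 0.127 to 0.752). KCNC2, a Kv3 pore of fast-firing neurons, had 39.9 and 43.2. KCNA7 had H3K27me3 of 41.1 and 56.3 with H3K4me3 of 16.5 and 4.47. KCNA5, a Kv1 pore of atrial muscle, had 28.9 and 19.0, so the Kv1 promoters of this class were at 0.568 or above.

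Some of the other members changed class too. KCNJ10, a rectifier of glia, was the one that became bivalent, with H3K27me3 of 9.89 in −Dox and 20.9 in +Dox (2.11, 0.852 to 5.58). It was 1 of 38 H3K4me3-only members (2.63%, 0.466 to 13.5), against 0.328% of all H3K4me3-only promoters. KCND1, SCN2B and CACNG5 passed from unmarked to H3K4me3-only (3 of 44, 6.82%, 2.35 to 18.2), against 2.53% of all unmarked promoters. KCNH6, KCNE3, KCNQ1 and CACNA1B passed from H3K4me3-only to unmarked (4 of 38, 10.5%, 4.17 to 24.1). The share among all H3K4me3-only promoters, 2.02%, lies below that interval. The H3K4me3 intervals of all 8 included 1. Among the unmarked, KCNT1, a sodium-activated pore, had H3K4me3 of 3.42 and 15.7 (4.58, 1.4 to 28.7), still below the threshold.

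Base composition was not part of the rule. The CpG observed/expected ratio, taken over 1 kb centred on the start, was a median of 0.814 at 44 bivalent channel promoters with a position, 0.617 at 6 H3K27me3-only, 0.791 at 34 H3K4me3-only and 0.245 at 39 unmarked. The same medians over all promoters were 0.793, 0.678, 0.784 and 0.262, and the medians of the channels lay close to them. A ratio above 0.6 was found at 38 of 44 bivalent and 5 of 39 unmarked channel promoters, against 87.4% and 12.6% of all promoters of these classes. For H3K4me3-only channel promoters it was 25 of 34 (73.5%), against 87.7%, and for H3K27me3-only 3 of 6, against 66.1%. Only 2 bivalent promoters were below 0.5, CACNA1S (0.164) and KCNJ9 (0.221, whose sequence is printed above), and both had an H3K27me3 ratio below 0.5. This pair was noticed after its values were seen. The stretch of 250 bases before the start held a median of 25 CG dinucleotides at bivalent, 25.5 at H3K4me3-only and 5 at unmarked channel promoters.

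**Figure D5:**
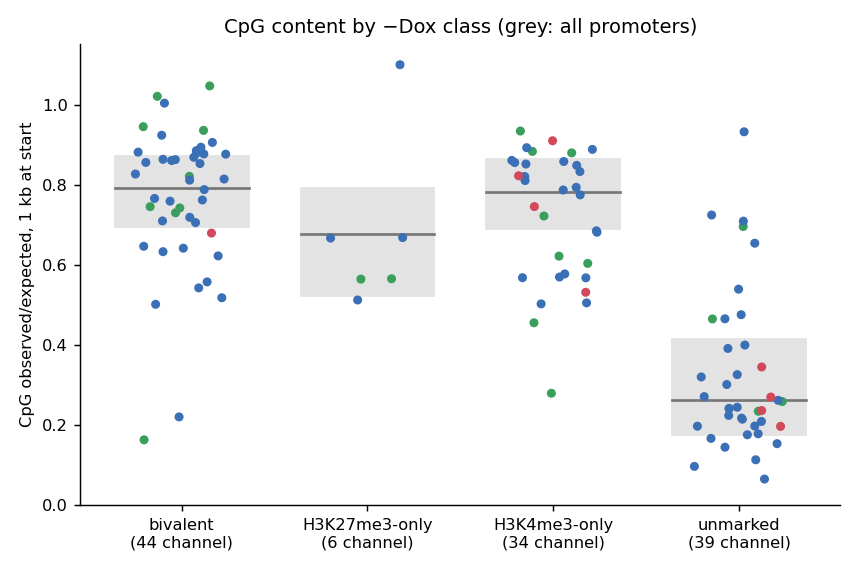
CpG observed/expected ratio over 1 kb centred on the start (y axis) by class in −Dox cells. Points are channel promoters coloured by type (blue potassium, red sodium, green calcium), and grey bands with a line give the quartiles and median of all promoters. Unmarked channel promoters sit low with a median of 0.245, and 2 bivalent ones lie below 0.5.

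Some channel genes lie close together and carried different classes. On chr1, KCNA3 was bivalent (H3K27me3 of 89.4 in −Dox and 77.5 in +Dox), while KCNA2, 43.5 kb away, was unmarked at the start measured here, which is 25116 bases from its usual one, and KCNA10 was unmarked too. On chr12, KCNA1 was bivalent and KCNA5, 133.5 kb away, H3K27me3-only. On chr19 CACNG7 and CACNG8 were H3K4me3-only and CACNG6, 28.7 kb from CACNG8, was H3K27me3-only. No windows of 2 channel genes overlapped. The windows of 10 channel promoters overlapped that of another gene, and 3 of these were bivalent (KCNAB3, KCNH4 and KCNK6), so their values are shared with that neighbour.

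Other genes of excitability were read from a pair of lists. Among 38 other cation channels of the HCN, CNG, TRP and related families, 5 were bivalent (CNGA1, CNGA3, HCN4 and TRPC4 among them), 14 H3K4me3-only and 19 unmarked. CNGA1, of rod photoreceptors, was the one with a ratio below 0.5, with H3K27me3 of 24.7 in −Dox and 8.95 in +Dox. Among 25 partners of the channels, 9 were bivalent, 2 H3K27me3-only, 8 H3K4me3-only and 6 unmarked. Over all promoters the shares of these classes were 9.42%, 1.58%, 54.2% and 34.8%. The sulfonylurea receptor ABCC8, which joins KCNJ11 in the pancreatic beta cell, was bivalent in both conditions (48.7 and 59.7), whereas KCNJ11 was H3K4me3-only. DPP6, a partner of Kv4 channels, had 88.6 and 67.9 at a start 165301 bases from its usual one. FGF13, which binds sodium channels, had 32.7 in −Dox and 1.12 in +Dox (0.0342, 0.000955 to 0.239), at a start 493306 bases from its usual one. The median log2 H3K27me3 ratio was −0.58 at the 5 bivalent cation channels and −0.39 at the 9 bivalent partners, against −0.67 at the 47 bivalent members of the 3 channel groups. Over all bivalent promoters this median was −0.81.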

How the data were processed

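The deposited values are signal, which the authors made by mapping single-end MiSeq reads to hg19 with Bowtie2, discarding mitochondrial reads and computing ngs.plot coverage scaled to library reads. They cover 3 kb on each side of the start of 1 transcript per gene, at 20242 promoters in each of 4 libraries. The submitters' processing notes also name CASAVA 1.4, without its role. Whether a scaling to the density after transcription ends, named in the study's methods, was applied is not given in the sources used here. No input library was used, so values include background.

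Members were found by gene symbol and sorted into types, subfamilies and roles by symbol prefix. They and all lists were chosen with earlier results of these data known. Classes used the threshold of 20, and the change was the plain +Dox/−Dox ratio. The values are whole multiples of a step, which gives about 2629351, 2682085, 3509244 and 2682085 library reads (H3K27me3 −Dox and +Dox, H3K4me3 −Dox and +Dox) and, with 3.38, 3.38, 3.45 and 3.43 points per read, approximate reads per promoter. From these the ratio of 1 promoter received a 95% Clopper-Pearson interval. Shares carry Wilson and medians order-statistic intervals. An interval on a ratio compares 2 libraries, not 2 conditions. The steps were tested on simulated data.

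Promoters named singly were the sodium channel members, the 8 lowest and 8 highest H3K27me3 ratios among bivalent members, members above 20 whose interval excluded 1, the 5 highest for each mark and among H3K27me3-only members, and members that became bivalent. Others are named where a count of 5 or fewer or a singled-out feature fell outside this rule, after their values were seen. The single values of a few genes that this rule names are not reported here. Transcripts were matched to GENCODE 44 lifted to GRCh37, which placed 123 of 135 members, 106 of them within 1 kb of the canonical start. Python 3.11.15, numpy 2.4.6, pandas 2.3.3, scipy 1.17.1 and matplotlib 3.10.9 were used.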

Additional observations from a re-analysis of the deposited data

How the results depend on the processing

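Alternatives were 2 other scalings, class thresholds of 10 and 30, classes from +Dox values or from the mean, a pseudocount of 5, 1 promoter per overlapping window, starts within 1 kb of the canonical one and coding genes only. The number of bivalent channel promoters (47) became 68 at a threshold of 10, 29 at 30, 31 with classes from +Dox and 39 with classes from the mean. The number with an H3K27me3 ratio below 0.5 (14) became 22 at a threshold of 10, 5 at 30, 3 with classes from +Dox and 9 with classes from the mean. The number still bivalent in +Dox (30) became 51 at a threshold of 10 and 17 at 30. The median log2 H3K4me3 ratio (−0.20) became −0.32 with a median ratio of 1 over low promoters, and the median log2 H3K27me3 ratio ranged from −0.36 to −0.70. Thresholds and classes change these counts by construction, since other promoters enter. For intervals, whose scalings were added after seeing the data, the same total per mark left 13 below 1 and 3 above 1 for H3K27me3 and 1 below 1 for H3K4me3, and the scaling over low promoters gave 12 below 1 and 0 above 1 for H3K4me3. In all, 40 of 54 recomputed values stayed within the bounds set for them. The classes need no pseudocount, and scaling was not applied to the number of bivalent promoters. No paired analysis was possible because the design has a single library in every group.

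Depth limits the H3K27me3 ratio of a single promoter near the threshold, where it rests on about 16 reads per library. A loss of H3K27me3 shared by the whole genome would not show in values scaled to library reads. At 16 members the measured start lies over 1 kb from the canonical one, and 12 members have no matched position.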
